A study of Saccharomyces cerevisiae with 20 samples.

Results

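The ribosome biogenesis factor genes of budding yeast (Saccharomyces cerevisiae) were taken as the transcripts whose RefSeq gene symbol is UTP, NOP, NOC, NSA, RPF, ENP or ESF followed by a number. The rule found 46 of the 6106 transcripts in the data, and all 46 were tested in every comparison. RNA was sequenced from WT cells of the laboratory strain BY4741 (MATa with his3, leu2, met15 and ura3 deletions, all shared by the mutant background) and from xrn1-H41A cells, which carry an amino acid substitution in the exoribonuclease Xrn1 that removes its NAD decapping (deNADding) activity. Cells of both strains were grown in a rich medium of yeast extract, peptone and glucose/glycerol. For these libraries the methods name no added agent and no growth phase. RNA of 3 biological replicates of each strain was sequenced without capture (RNA-seq) and following capture by SPAAC or NADcapPro. SPAAC replaces the nicotinamide of an NAD cap with an azide by the enzyme ADPRC, joins biotin to it by copper-free click chemistry and recovers the RNA on streptavidin. NADcapPro adds a prior treatment with Dcs1, which removes m7G caps. The methods name polyA RNA as the input of both captures and do not state that of standard RNA-seq. An enriched RNA is one that streptavidin recovered more than its share of the RNA-seq library, and no library measures the NAD cap itself.

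Ribosome biogenesis factors are proteins that act on ribosomal RNA and ribosomal proteins during assembly and leave before the ribosome is mature. Most act in the nucleolus. The UTP-A, UTP-B and UTP-C subcomplexes and further factors join the nascent precursor RNA in the 90S particle, also called the small subunit processome. snoRNPs methylate or pseudouridylate the precursor at positions chosen by their guide RNAs, and another set of factors builds the large subunit. In yeast the genes for these factors are known to be transcribed together in response to nutrients and growth, and their promoters are known for 2 short elements, PAC and RRPE.

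By role, 6 members belonged to UTP-A, 4 to UTP-B, 1 (UTP22) to UTP-C and 16 to other 90S and small subunit factors, while 4 were core proteins of snoRNPs and 15 were large subunit factors. The rule uses names alone, and features that it did not use are described here. All 46 have a single exon and no annotated gene overlaps any of them. The shares over all transcripts are not given here, so neither is shown to be particular to the members. They lie on 13 chromosomes. Their coding lengths ran from 177 nt (NOP10) to 7482 nt (UTP20), with a median of 1600.5 nt against 1182 nt over all transcripts. All 46 lengths are multiples of 3, as are 97.8% of all 6106, so the reference sequences hold coding sequence only. GC content was between 33.5% and 47.5% with a median of 37.9%. At least 99.9% of the 31-mers of each member are its own among all transcripts, so little of their count could have been shared with a paralog.

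The PAC core (GATGAG) and the RRPE core (AAAAATTT) were searched on both strands from 250 bases before to 50 bases after the first base of the start codon in the R64 genome. PAC was found in 41 of the 46 promoters (89.1%), against 20.4% of 5974 promoters. RRPE was found in 38 of the 46 (82.6%), against 14.2%, and both in 34 (73.9%), against 5.66%. The promoters of 101 other genes of the pathway, described below, held PAC in 92.1%, RRPE in 84.2% and both in 78.2%. The cores were therefore not particular to the members. Each of several overlapping matches was counted, and the end letters of the cores do not allow PAC and RRPE to overlap each other. The 66 PAC matches had a median position of -112 and the 55 RRPE matches a median of -134, where 0 is the A of the start codon and a position is that of the leftmost base of a match. Of the 34 promoters with both, the RRPE match nearest to a PAC lay upstream of it in 32. Over all 34 the median distance was 17 bases. The only PAC match of ESF2 (at 42) and of UTP4 (at 5) lies inside the coding sequence, and both genes are counted in the 41 and the 34. A match describes letters in this window and does not show that a factor binds there.

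**Figure D1:**
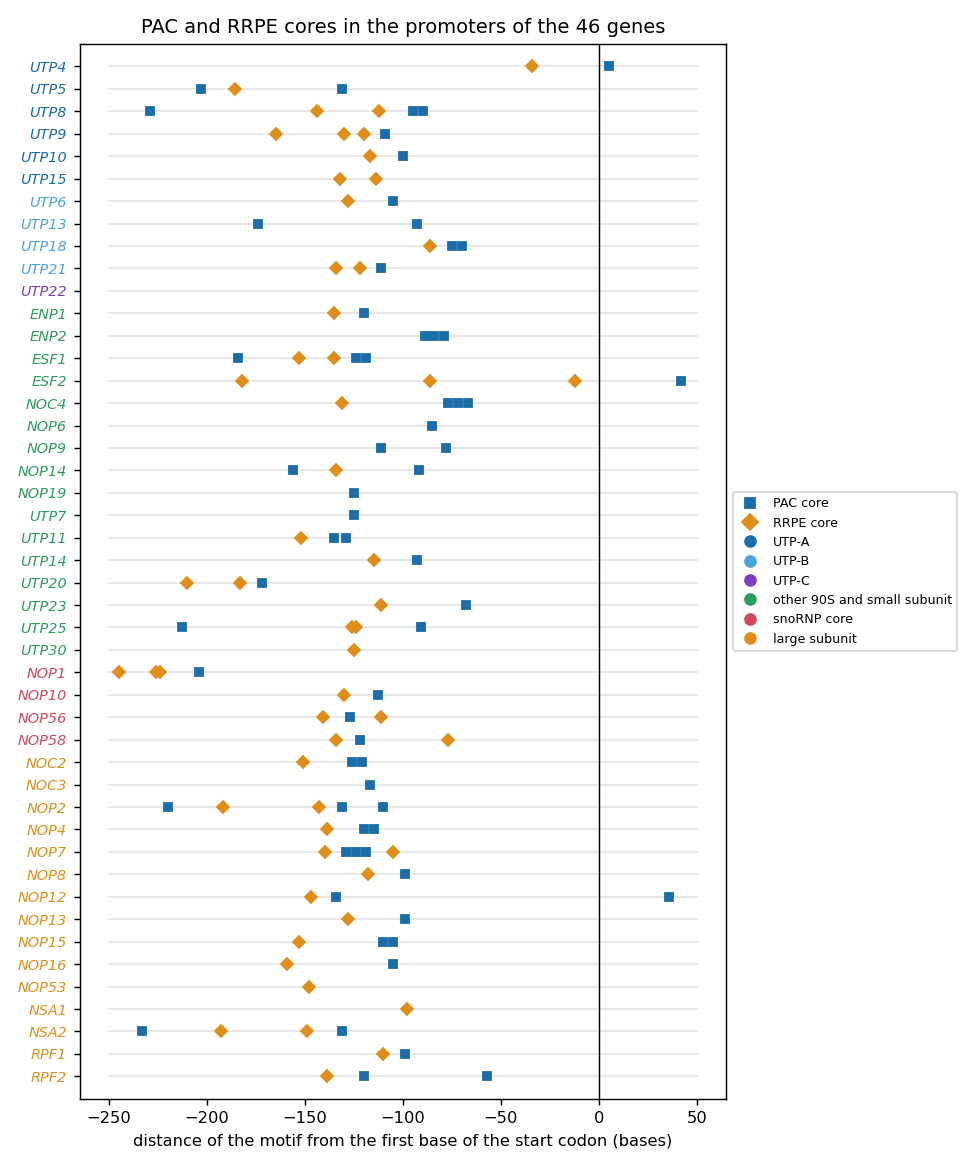
Positions of PAC cores (squares) and RRPE cores (diamonds) in the promoters of the 46 genes, in bases from the first base of the start codon (black line), with gene names coloured by role. PAC matches gather around a median of -112 and RRPE matches around -134, and UTP22 is the 1 gene with neither.

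The 200 bases before the start codon are given for 6 members, on the coding strand from 5′ to 3′, with PAC and RRPE cores of either strand in capitals. NOP56, a C/D snoRNP protein (chrXII:545897-546096, plus strand), shows the common arrangement with PAC beside RRPE. NOP10, an H/ACA snoRNP protein (chrVIII:241464-241663, plus strand), had the highest RNA level of the members after correction for length. ESF1 (chrIV:1206384-1206583, minus strand) and NOP53 (chrXVI:277530-277729, minus strand) had the largest strain differences in RNA level, the first with several PAC cores and the second with none. UTP20 (chrII:227436-227635, plus strand) was the longest member and had the largest lower level in the mutant, and UTP22 (chrVII:662158-662357, plus strand) had neither core.
NOP56: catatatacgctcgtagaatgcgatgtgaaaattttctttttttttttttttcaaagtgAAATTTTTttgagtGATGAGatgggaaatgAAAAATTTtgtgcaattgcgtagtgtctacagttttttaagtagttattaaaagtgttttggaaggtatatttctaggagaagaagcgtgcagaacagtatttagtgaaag
NOP10: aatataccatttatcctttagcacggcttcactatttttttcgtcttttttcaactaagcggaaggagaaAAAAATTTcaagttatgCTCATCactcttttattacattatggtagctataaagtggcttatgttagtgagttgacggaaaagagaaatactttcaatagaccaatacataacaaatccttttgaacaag
ESF1: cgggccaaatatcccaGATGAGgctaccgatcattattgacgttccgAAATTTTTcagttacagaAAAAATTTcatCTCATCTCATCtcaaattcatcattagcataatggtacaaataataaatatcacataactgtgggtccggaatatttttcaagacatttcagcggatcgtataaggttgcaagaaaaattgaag
NOP53: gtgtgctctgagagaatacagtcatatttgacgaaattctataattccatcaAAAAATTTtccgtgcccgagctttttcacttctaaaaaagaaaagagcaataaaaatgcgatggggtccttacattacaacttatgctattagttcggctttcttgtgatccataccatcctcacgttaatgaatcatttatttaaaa
UTP20: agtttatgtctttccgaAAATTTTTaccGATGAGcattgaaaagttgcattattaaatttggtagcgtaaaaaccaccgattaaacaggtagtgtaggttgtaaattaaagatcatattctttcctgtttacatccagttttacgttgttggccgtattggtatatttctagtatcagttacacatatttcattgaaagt
UTP22: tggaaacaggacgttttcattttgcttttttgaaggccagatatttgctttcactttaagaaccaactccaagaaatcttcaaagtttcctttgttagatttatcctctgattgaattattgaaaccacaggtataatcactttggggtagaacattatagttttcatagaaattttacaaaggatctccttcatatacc

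The 18 libraries held between 13038320 and 33816015 estimated counts, and the lowest count of any member in any library was 355 (UTP20 in xrn1-H41A SPAAC), so all members lay far above the floor of 3 counts. Replicates of a group differed by more than sampling noise, with a chi-square of 3.04 to 13.1 per transcript over pairs of replicates. LEU2, MET17 and URA3 held 0 to 4 counts in every library, which are the genes of leu2, met15 and ura3, while HIS3 was counted in all. XRN1, whose substitution cannot be read from counts, was measured at 500.3, 488.5 and 487.6 CPM (counts scaled to a library size common to all libraries) in WT RNA-seq and at 325.3, 318.7 and 325.2 in xrn1-H41A, a log2 fold change of -0.61 ± 0.04 (SE, edgeR adjusted p = 1.44e-09). Libraries were not stated to mark the strand, so reads from a transcript that runs into a member from the opposite strand could not be told apart from its own. All CPM values carry TMM factors computed over the 18 libraries, whereas each fold change comes from a fit of its own libraries. Ratios of printed CPM can therefore differ from the fitted fold by more than its SE. With 18 libraries in one fit the median of all transcripts moved by 0.14 in WT and 0.21 in xrn1-H41A for NADcapPro over SPAAC. It moved by -0.09 for xrn1-H41A SPAAC over RNA-seq.

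RNA levels of the members were compared between genes per length, as TPM, the share of a library's transcripts after correction for length. In WT RNA-seq the mean TPM ran from 15.9 (UTP20) to 1249 (NOP10), with a median of 46.9, and 43 of the 46 members lay above the median of all transcripts of 25.2. In xrn1-H41A it ran from 11.5 (UTP20) to 1212 (NOP10), with a median of 66.4, and 38 members lay above the all-transcript median of 32.8. The 4 snoRNP core genes had the highest levels in WT. NOP10 was followed by NOP1 (fibrillarin, the methyltransferase of C/D snoRNPs) at 591.8 TPM, NOP56 at 288.6 TPM and NOP58 at 229 TPM, and the 3 libraries of each of these 4 did not overlap with those of the next. UTP20, UTP25 and UTP22, at 15.9, 20.4 and 24.8 TPM, had the lowest. NOP10 is the shortest member, and its rank rests on the correction for length. By CPM, which carries none, its WT mean was 135.6 against 953.8 for NOP1. TPM is relative to all RNA in a library, so the number of cells and the RNA per cell cannot be told apart in it, and the median of all transcripts also stood higher in xrn1-H41A.

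**Figure D2:**
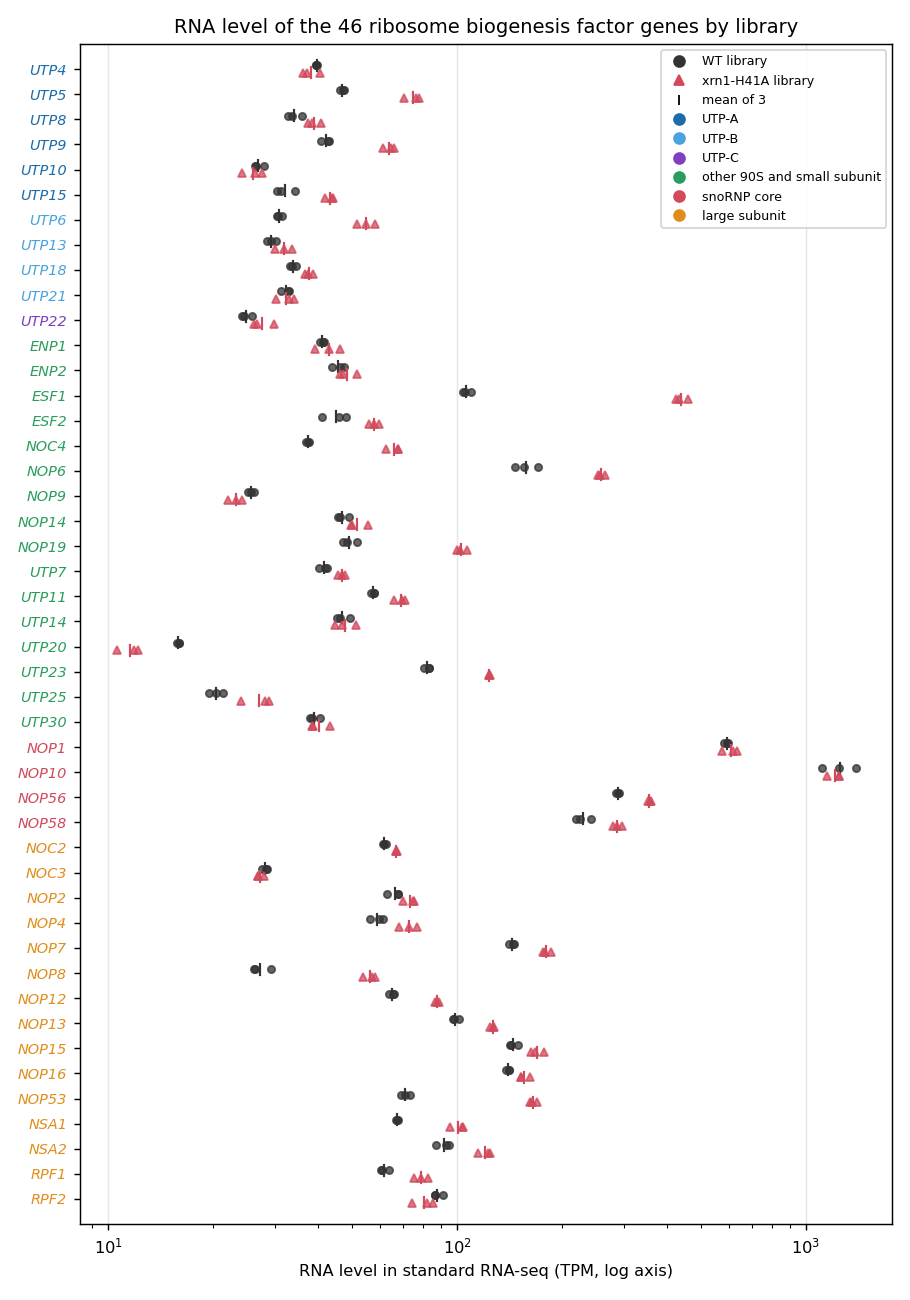
TPM (log axis) of each of the 46 genes in the 3 WT (circles) and 3 xrn1-H41A (triangles) RNA-seq libraries, with a tick at each mean and gene names coloured by role. NOP10 (1249 TPM in WT) and NOP1 (591.8) stand highest, UTP20 (15.9) lowest, and ESF1 is the gene whose WT and mutant libraries lie farthest apart.

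Between strains, the levels of the biogenesis factor genes in RNA-seq mostly differed by small amounts, with ESF1 as the exception. Of the 46 members, 16 were higher in xrn1-H41A (36.2% of all 5965 transcripts tested were) and 12 were lower (34.8% of all), at an adjusted p of at most 0.01. The median log2 fold change was 0.02, against 0.00 over all transcripts, and the middle 50% of the members spanned 0.37 on the log2 scale, against 0.71 over all. At a change of at least 2-fold, 1 member was higher (7.69% of all transcripts) and 0 were lower (2.53% of all) by edgeR. The count of 0 was the same at an unadjusted p under 0.05 and with DESeq2. The lowest log2 fold change by edgeR was -0.69, so no p threshold could change that count. Libraries of the 2 strains did not overlap for 37 of the 46 members and for 79.7% of all transcripts, so a lack of overlap was common.

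ESF1, a nucleolar factor for small subunit rRNA processing (chrIV:1204497-1206383, minus strand), was measured at 398.6, 410.8 and 411.9 CPM in WT RNA-seq and at 1483, 1425 and 1384 CPM in xrn1-H41A. Every mutant library lay far above every WT library. The log2 fold change was 1.81 ± 0.04 (SE, 3.51-fold, edgeR adjusted p = 1.34e-14), which placed ESF1 above 98.6% of all transcripts tested. It was also higher in the mutant after capture, at 286.4, 277.5 and 288 CPM in WT SPAAC against 615.6, 614 and 612 CPM in mutant SPAAC, and at 386, 378.9 and 379.9 CPM in WT NADcapPro against 1094, 1131 and 1192 CPM in mutant NADcapPro. The strains did not overlap in any assay, and the captured levels were not tested between strains.

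NOP53, a large subunit factor that brings the RNA exosome to the precursor (chrXVI:276162-277529, minus strand), was measured at 181.5, 189.1 and 189.9 CPM in WT and at 375.1, 375.5 and 364.3 CPM in the mutant, a log2 fold change of 0.99 ± 0.04 (adjusted p = 7.63e-12). NOP19, a 90S factor (chrVII:995639-996229, plus strand), was at 43.4, 40.6 and 41.7 CPM in WT and at 77, 76.2 and 75.3 CPM in the mutant, a log2 fold change of 0.87 ± 0.05 (adjusted p = 2.23e-10). Both rose with no overlap between strains and stayed under 2-fold. In the other direction, UTP20, a large HEAT-repeat protein of the 90S particle (chrII:227636-235117, plus strand), was at 262.5, 267.4 and 251 CPM in WT and at 169.2, 153 and 161.9 CPM in the mutant. It fell by 0.69 on the log2 scale (SE 0.04, adjusted p = 1.38e-09), again with no overlap. NOP9, an RNA-binding protein of the small subunit pathway, fell by 0.38 (SE 0.04, adjusted p = 7.23e-07), and RPF2, which helps to bring the smallest ribosomal RNA into the large subunit precursor, fell by 0.36 (SE 0.04, adjusted p = 1.01e-06).

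The snoRNP core genes differed less between strains. NOP1 was at 940.4, 949.1 and 971.9 CPM in WT and 839.3, 817.7 and 865.8 CPM in the mutant, a log2 fold change of -0.18 ± 0.04 (adjusted p = 0.000232), and the strains did not overlap. NOP10 had a log2 fold change of -0.28 ± 0.07 (adjusted p = 0.00253), with overlapping libraries. NOP56 (0.07 ± 0.03, adjusted p = 0.0602) and NOP58 (0.09 ± 0.04, adjusted p = 0.0644) did not pass the threshold. By role, 3 of 6 UTP-A members were higher and 2 lower, 6 of 16 other small subunit factors were higher and 5 lower, and 6 of 15 large subunit factors were higher and 2 lower. The 5 members with no PAC core had log2 fold changes from -0.17 to 0.99, so they were found on both sides of 0.

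The other genes of the pathway were taken from a list of small subunit, snoRNP and large subunit factors and RNA polymerase I subunits. Of 101 tested, 39 were higher and 31 lower in xrn1-H41A, with a median log2 fold change of 0.00. At 2-fold or more there were 0 in either direction, also at an unadjusted p under 0.05. Their values ran from -0.70 to 0.89, so no p threshold could change that count. The largest changes were those of RRP14 (0.89 ± 0.04, adjusted p = 1.77e-11) and RRP15 (0.80 ± 0.04, adjusted p = 5.79e-11), rRNA processing factors, and of RPA190, the largest subunit of RNA polymerase I (-0.70 ± 0.06, adjusted p = 1.91e-08), and RRP5, a factor of both subunits (-0.60 ± 0.05, adjusted p = 1.18e-08). The split of calls depends on the scaling. With library totals alone the median of all transcripts moved by 0.18, and 25 members were then higher and 3 lower. Of all 5965 transcripts, 2938 were then higher and 1258 lower. Members and all transcripts moved together, and in both scalings 23 of the 46 lay below the median of all.

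SPAAC recovered the members unevenly. The 3 longest, UTP20, UTP10 and UTP22, lay far below their share of RNA-seq in both strains, and members lay on both sides of it at other lengths. In WT, 1 member was enriched at least 2-fold (4.77% of all 5979 transcripts) and 4 were depleted at least 2-fold (15.9% of all). At the adjusted p alone, 18 were higher (39.9% of all) and 24 lower (39.6% of all), with a median log2 fold change of -0.16 against 0.02 over all. In xrn1-H41A, 2 members were enriched (4.39% of all 5968 transcripts) and 4 depleted (13.8%), while 21 were higher (39% of all) and 16 lower (38.6%) at the adjusted p alone. The median there was 0.05 against 0.00 over all. UTP10, UTP20 and UTP22 were depleted in both strains, and no member was enriched at least 2-fold in both. SPAAC and RNA-seq libraries did not overlap for 44 members in WT (86.2% of all transcripts) and 39 in the mutant (84.3% of all). By role, in WT SPAAC 5 of the 6 UTP-A members were lower and 0 higher, and 3 of the 4 UTP-B members were lower and 1 higher. Of the 16 other small subunit factors 9 were higher and 7 lower, and of the 15 large subunit factors 7 were higher and 6 lower. Each capture was compared with the RNA-seq of its own strain, so SPAAC and NADcapPro of a strain share those libraries.

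UTP11, a 90S factor, was the member enriched in WT. It was at 69.3, 69.3 and 69.7 CPM in WT RNA-seq and at 143, 142.2 and 140.9 CPM in WT SPAAC, a log2 fold change of 1.02 ± 0.03 (adjusted p = 1e-13), and in the mutant it had a log2 fold change of 0.93 ± 0.04 (adjusted p = 6.2e-11). NOP1 was at 940.4, 949.1 and 971.9 CPM in WT RNA-seq and at 1884, 1887 and 1796 CPM in WT SPAAC, a log2 fold change of 0.95 ± 0.03 (adjusted p = 2.51e-13). In the mutant its SPAAC libraries were at 1689, 1672 and 1667 CPM, with a log2 fold change of 1.08 ± 0.03 (adjusted p = 6.09e-13). SPAAC libraries of UTP11 and NOP1 lay above every RNA-seq library of their strain, at about the 2-fold threshold on either side of it. NOP15, an RNA-binding protein of the large subunit precursor, had log2 fold changes of 0.96 ± 0.04 in WT (adjusted p = 3.7e-12) and 1.07 ± 0.05 in the mutant (adjusted p = 1.04e-10).

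The other C/D proteins did not follow NOP1. NOP56 was at 840.4, 836.1 and 822.5 CPM in WT RNA-seq and at 567.3, 549.9 and 567.7 CPM in WT SPAAC, a log2 fold change of -0.58 ± 0.03 (adjusted p = 1.04e-10), and it had -0.45 ± 0.04 in the mutant (adjusted p = 6.92e-08). NOP58 had -0.40 ± 0.04 in WT (adjusted p = 3.41e-07) and -0.07 ± 0.04 in the mutant (adjusted p = 0.173). NOP10, the shortest member, had -0.11 ± 0.07 in WT (adjusted p = 0.137) and 0.05 ± 0.06 in the mutant (adjusted p = 0.361), and its SPAAC libraries overlapped with RNA-seq in both strains.

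UTP10, a large HEAT-repeat protein of UTP-A (chrX:212000-217309, minus strand), was at 299.9, 307.1 and 312 CPM in WT RNA-seq and at 42.1, 41.9 and 47.3 CPM in WT SPAAC, a 7.03-fold lower level (log2 fold change -2.81 ± 0.04, adjusted p = 3.83e-16). UTP20 was at 262.5, 267.4 and 251 CPM in WT RNA-seq and at 40.7, 40.4 and 44.5 CPM in WT SPAAC (log2 fold change -2.64 ± 0.04, adjusted p = 4.55e-16). Both were far below their RNA-seq libraries in the mutant too, with log2 fold changes of -2.63 ± 0.05 for UTP10 and -2.57 ± 0.05 for UTP20 (adjusted p = 3.69e-14 and 4.38e-14). UTP22, the third longest member and a UTP-C protein (chrVII:662358-666071, plus strand), had -1.61 ± 0.04 in WT and -1.28 ± 0.05 in the mutant (adjusted p = 8.23e-14 and 3.03e-11). The remaining depleted members were UTP8 of UTP-A in WT (-1.14 ± 0.05, adjusted p = 1.05e-11) and ESF1 in the mutant (-1.13).

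Log2 fold changes in SPAAC were lower at greater coding length. Across the 46 members Spearman's rho with length was -0.77 in WT and -0.66 in the mutant, and across all transcripts tested it was -0.64 and -0.57. These are descriptions across genes of the same libraries, not across replicates. Members departed from the trend, among them UTP14, at 2700 nt the fifth longest, which was higher in SPAAC in both strains (0.18 ± 0.03 and 0.45 ± 0.04, adjusted p = 0.000179 and 3.17e-07). In WT the median of all transcripts was -1.64 in the longest of 10 length classes (median 3660 nt), 0.52 in the class next to the shortest (median 471 nt) and 0.27 in the shortest (median 267 nt), so it did not fall steadily with length. When the trend on length was removed, 0 members were depleted in either strain, rho among the members was 0.09 in WT and 0.14 in the mutant, and UTP20 had a log2 fold change of 0.18 in WT and 0.052 in the mutant. The share of all transcripts depleted in that setting is not given here. In it 17 members in WT and 16 in the mutant lay below the median of all. With library totals alone no member was enriched at least 2-fold in either strain, against 71 of all 5979 transcripts in WT and 46 of all 5968 in the mutant.

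**Figure D3:**
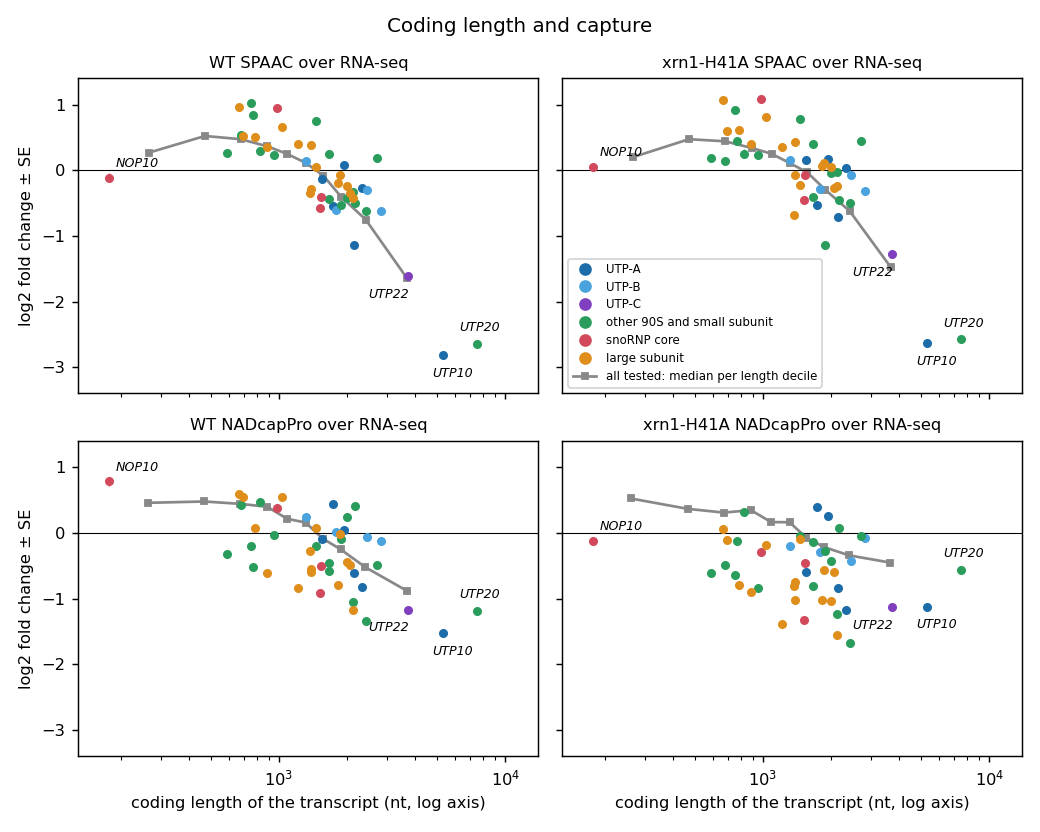
Log2 fold change of capture over RNA-seq (± SE, mostly smaller than the symbols) against coding length (log axis) for the 46 genes in SPAAC and NADcapPro of each strain, coloured by role, with a grey line through the medians of all transcripts tested in 10 length classes. In WT SPAAC the genes follow the line down to UTP10 (-2.81) and UTP20 (-2.64), and in xrn1-H41A NADcapPro most genes lie below it.

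In NADcapPro no biogenesis factor gene was enriched at least 2-fold in either strain, and in xrn1-H41A most were recovered below their share of RNA-seq. In WT, 0 of the 46 members were enriched (13.1% of all 6020 transcripts) and 6 were depleted at least 2-fold (9.85% of all). At the adjusted p alone, 11 were higher (41.1% of all) and 26 lower (40.5% of all), with a median log2 fold change of -0.23 against 0.01 over all. In xrn1-H41A, 0 were enriched (14.3% of all 6046 transcripts) and 11 depleted (9.87% of all), while 3 were higher (43% of all) and 36 lower (41.4% of all). The median in the mutant was -0.57 against 0.02 over all. By edgeR, the counts of 0 were the same at an unadjusted p under 0.05, and DESeq2 also called 0 in each strain. The highest log2 fold change by edgeR was 0.79 in WT and 0.40 in the mutant, so no p threshold could change these counts. NADcapPro and RNA-seq libraries did not overlap for 40 members in WT (87.8% of all transcripts) and 43 in the mutant (88.9% of all).

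Summed over the 46 members, the level was 9682, 9660 and 9640 CPM in WT RNA-seq and 8042, 8023 and 8047 CPM in WT NADcapPro. In xrn1-H41A it was 11161, 10916 and 10826 CPM in RNA-seq and 7253, 7285 and 7481 CPM in NADcapPro. The captured libraries lay below the RNA-seq libraries of their strain with no overlap, and the mutant stood above WT in RNA-seq and below WT in NADcapPro. The mean of the sums in RNA-seq was 9660 CPM in WT and 10968 CPM in the mutant. ESF1 alone, at means of 407.1 and 1431 CPM, made up a large part of that rise. In NADcapPro ESF1 was higher in the mutant (means of 381.6 CPM in WT and 1139 CPM in the mutant), against the direction of the sum. The order of the strains in NADcapPro depends on the scaling, since as a share of all counts in a library the members took 0.852% ± 0.00805 in WT and 0.983% ± 0.0123 in the mutant (SD, n = 3). In SPAAC the sums were 9623, 9439 and 9564 CPM in WT and 10290, 10129 and 10338 CPM in the mutant, so the mutant was higher there as well as in RNA-seq. ESF1 had SPAAC means of 283.9 CPM in WT and 613.8 CPM in the mutant.

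**Figure D4:**
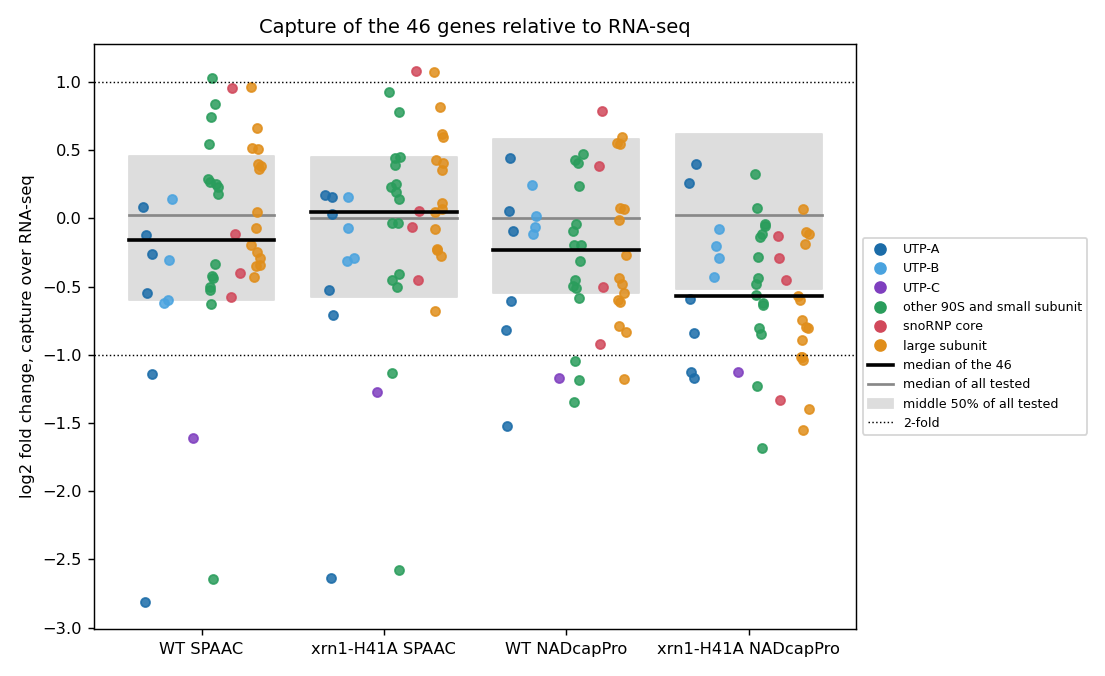
Log2 fold change of capture over RNA-seq for the 46 genes in each assay and strain, one point per gene coloured by role, with the median of the 46 (black), the median and middle 50% of all transcripts tested (grey) and the 2-fold thresholds (dotted). The median of the 46 lies at -0.16, 0.05, -0.23 and -0.57 from left to right, and no gene reaches the upper threshold in NADcapPro.

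The members highest in WT NADcapPro were NOP10, NOP15 and RPF2. NOP10 (chrVIII:241664-241840, plus strand) was at 117.7, 134.8 and 154.3 CPM in WT RNA-seq and at 225.6, 235.6 and 245.1 CPM in WT NADcapPro, a log2 fold change of 0.79 ± 0.07 (adjusted p = 1.24e-07). In the mutant it was at 112.7, 119.8 and 105 CPM in RNA-seq and at 100.8, 99.1 and 99.9 CPM in NADcapPro (-0.13 ± 0.04, adjusted p = 0.0115). NOP10 was thus above its RNA-seq libraries in WT and did not pass the threshold in the mutant. NOP15 had 0.59 ± 0.04 in WT (adjusted p = 1.03e-08) and RPF2 0.55 ± 0.04 (adjusted p = 6.75e-09).

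The lowest members in WT NADcapPro were UTP10, NOP14 and UTP20. UTP10 was at 107.9, 106.5 and 105.2 CPM, against 299.9, 307.1 and 312 CPM in RNA-seq (log2 fold change -1.52 ± 0.04, adjusted p = 9.56e-14). NOP14, a small subunit factor that binds Noc4 (chrIV:188154-190586, minus strand), was at 243.7, 230.5 and 225.8 CPM in WT RNA-seq and at 90.6, 91.5 and 93.4 CPM in WT NADcapPro (-1.34 ± 0.04, adjusted p = 4.66e-13). UTP20 had -1.18 ± 0.04 (adjusted p = 1.95e-12). The remaining 3 depleted in WT were NOC2, UTP22 and ENP2, and UTP10, NOP14, NOC2, UTP22 and ENP2 were depleted in both strains.

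In xrn1-H41A the lowest were NOP14, NOC2 and NOP13. NOP14 was at 233.9, 217.9 and 207.8 CPM in RNA-seq and at 63, 72.8 and 63.5 CPM in NADcapPro (-1.68 ± 0.06, adjusted p = 7.77e-13). NOC2, a partner of Noc1 and Noc3 in large subunit assembly (chrXV:727512-729644, plus strand), was at 244.8, 254.9 and 243.7 CPM in RNA-seq and at 78.8, 83.8 and 82.7 CPM in NADcapPro (-1.55 ± 0.04, adjusted p = 2.18e-14). NOP13, a nucleolar RNA-binding protein (chrXIV:307401-308612, minus strand), was at 246.2, 250.1 and 243.9 CPM and then at 92.1, 91.2 and 89.1 CPM (-1.39 ± 0.03, adjusted p = 2.6e-14). No captured library of these genes came near its RNA-seq level, and their coding lengths ran from 1212 to 2433 nt. In the length classes with medians of 1311, 1869 and 2403 nt, the median of all transcripts was 0.16, -0.22 and -0.34. The 3 members higher than RNA-seq were UTP9 (0.40 ± 0.03, adjusted p = 2.99e-08) and UTP5 (0.26 ± 0.03, adjusted p = 4.7e-06) of UTP-A and UTP30 (0.32 ± 0.06, adjusted p = 6.36e-05), a small subunit factor related to ribosomal protein L1.

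Of the snoRNP core genes, NOP56 was at 440.4 CPM ± 7.19 in WT NADcapPro and 338.3 CPM ± 13 in the mutant (SD, n = 3), with log2 fold changes over RNA-seq of -0.92 ± 0.03 (adjusted p = 1.15e-12) and -1.33 ± 0.03 (adjusted p = 3.25e-14). NOP58 had -0.50 ± 0.04 and -0.45 ± 0.03 (adjusted p = 1.47e-08 and 3.34e-09). NOP1 was at 1250, 1241 and 1238 CPM in WT NADcapPro and at 659.6, 659.7 and 670.1 CPM in the mutant. It was therefore above RNA-seq in WT (0.38 ± 0.03, adjusted p = 5.23e-09) and below it in the mutant (-0.29 ± 0.03, adjusted p = 4.61e-07).

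By role, 13 of the 15 large subunit members were lower than RNA-seq in mutant NADcapPro, 5 of them at least 2-fold, with a median log2 fold change of -0.79. Of the 16 other small subunit factors 12 were lower and 1 higher (median -0.46), of the 6 UTP-A members 4 were lower and 2 higher (median -0.71), and of the 4 UTP-B members 3 were lower (median -0.25). The relation to coding length was weaker than in SPAAC, with a rho across the 46 members of -0.51 in WT and -0.21 in the mutant. After the trend on length was removed, 0 members were depleted in WT and 8 in the mutant, and the mutant median was -0.53. The share of all transcripts depleted in that setting is not given here. In it 28 members in WT and 40 in the mutant lay below the median of all. With library totals alone 4 members were depleted in the mutant (318 of all 6046 transcripts were), where the median of all transcripts moved by 0.26. In both scalings 41 of the 46 lay below the median of all.

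Of the 101 other pathway genes, 75 were lower and 20 higher in mutant NADcapPro, with a median of -0.57 and 21 depleted at least 2-fold. In WT, 55 were lower and 34 higher, with a median of -0.17, and 7 were enriched at least 2-fold, among them IMP4, a protein that binds the small subunit precursor (1.67 ± 0.04, adjusted p = 1.2e-13), and RPA14, an RNA polymerase I subunit (1.67 ± 0.04, adjusted p = 4.52e-14). The lowest in WT were KRE33 (-1.66 ± 0.04, adjusted p = 2.31e-13), an rRNA acetyltransferase, and ECM16 (-1.58 ± 0.04, adjusted p = 9.25e-14), a helicase of the 90S particle. Among them the 7 other snoRNP proteins had a median of 0.47 in WT and 0.33 in the mutant.

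Whether enrichment in NADcapPro differed between strains was tested by an interaction term. It was lower in xrn1-H41A for 30 of the 46 members (30.2% of all 6059 transcripts) and higher for 6 (33.7% of all). The median difference was -0.32, against 0.05 over all transcripts. No member differed at least 2-fold in either direction (4.19% of all transcripts higher and 2.94% lower). By edgeR these counts of 0 were also 0 at an unadjusted p under 0.05, and DESeq2 called 0 as well. The differences by edgeR ran from -0.90 to 0.63, so no p threshold could change these counts. All 15 large subunit members had a value below 0 and 12 of them passed the threshold, with a median of -0.51. Of the 16 other small subunit factors 9 were lower and 4 higher, of UTP-A 3 were lower and 2 higher, and of UTP-B 3 were lower.

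NOP6, a small subunit factor (chrIV:77289-77966, minus strand), was at 156.4, 169.5 and 184.2 CPM in WT RNA-seq and 228.8, 226.6 and 233.9 CPM in WT NADcapPro, but at 232, 254 and 235.1 CPM in mutant RNA-seq and 161.8, 159.3 and 177.3 CPM in mutant NADcapPro. Capture stood above RNA-seq in WT and below it in the mutant with no overlap in either, and the strain difference was -0.90 ± 0.08 (adjusted p = 5.44e-09). NOP10 differed by -0.90 ± 0.10 (adjusted p = 1.31e-07). NSA2, a large subunit factor (chrV:413394-414179, minus strand), was at 123.1, 115 and 119.9 CPM in WT RNA-seq, 125.7, 126.6 and 124.7 CPM in WT NADcapPro, 132.4, 130.8 and 137.3 CPM in mutant RNA-seq and 73.8, 73.3 and 75.9 CPM in mutant NADcapPro. Its mutant NADcapPro libraries were the low ones, and the difference was -0.86 ± 0.04 (adjusted p = 8.19e-12). NOP1 and NOP56 differed by -0.66 ± 0.04 and -0.39 ± 0.04 (adjusted p = 3.35e-11 and 2.21e-07), while NOP58 did not pass the threshold (0.06 ± 0.05, adjusted p = 0.278).

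The 6 members with a higher value in the mutant were all small subunit factors, namely UTP20, NOC4, UTP14, UTP10, UTP23 and UTP5. UTP20 was at 116.8, 111.2 and 115.6 CPM in WT NADcapPro and at 107.4, 104.2 and 105 CPM in the mutant, while its RNA-seq level was lower in the mutant, and the difference in enrichment was 0.63 ± 0.06 (adjusted p = 1.61e-08). NOC4, the partner of Nop14, was at 119.7, 121.6 and 116.7 CPM in WT RNA-seq and 78.8, 79.3 and 80.4 CPM in WT NADcapPro, and at 182.8, 176.5 and 181.6 CPM and then 154.1, 161.9 and 159.5 CPM in the mutant. NADcapPro was below RNA-seq in both strains, less so in the mutant, with a difference of 0.46 ± 0.05 (adjusted p = 4.34e-08). UTP14, which activates a helicase of the 90S particle, differed by 0.46 ± 0.06 (adjusted p = 1.19e-06).

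**Figure D5:**
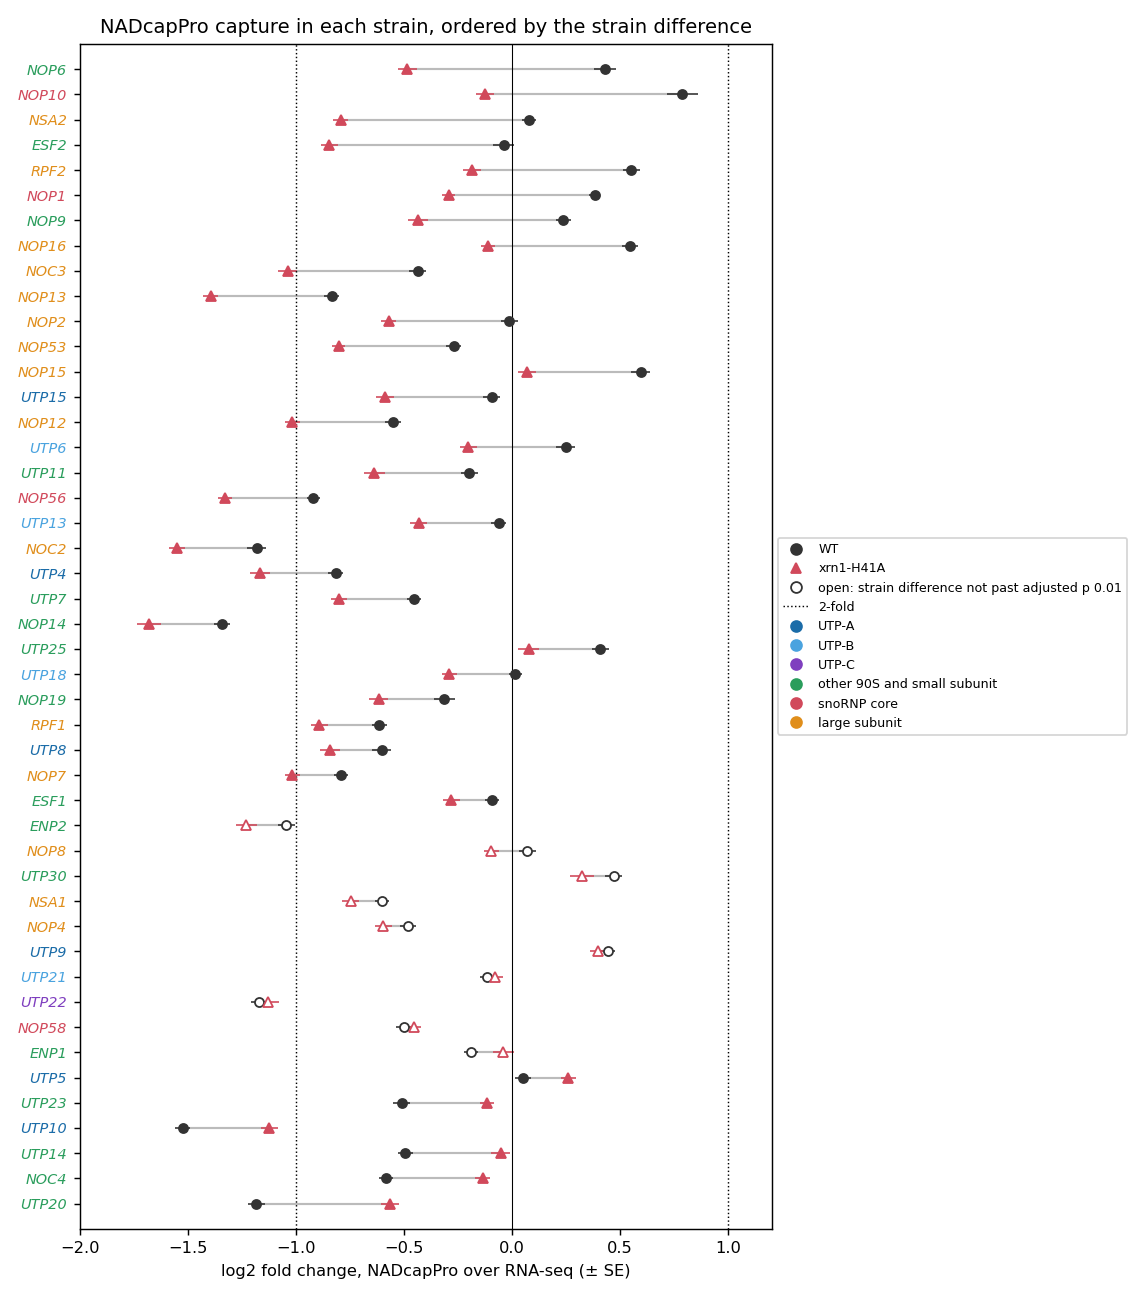
Log2 fold change of NADcapPro over RNA-seq (± SE) of the 46 genes in WT (circles) and xrn1-H41A (triangles), ordered by the strain difference, with open symbols where the difference did not pass the threshold and gene names coloured by role. The mutant lies to the left of WT for most genes, from NOP6 (-0.90) at the top, and to the right for UTP20 (0.63) at the bottom.

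The difference between strains rose with coding length among the members (rho 0.49 across the 46, 0.22 across all transcripts). With the length trend removed, 34 members were lower and 3 higher in the mutant, and UTP20 had a difference of -0.13 in place of 0.63. The share of all transcripts called in that setting is not given here. In it 40 of the 46 members lay below the median of all, against 36 in the main fit. The interaction rests on the same RNA-seq libraries as the strain comparison of RNA levels, so the values of one gene in both are not independent. Of the 101 other pathway genes 57 were lower and 11 higher in the mutant, with a median of -0.22. Among them, 5 of 48 large subunit factors were higher and 28 lower, and 2 of 38 small subunit factors were higher and 20 lower. Higher values were thus not limited to small subunit factors there, as they were among the members.

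In SPAAC the strain difference was smaller. It was higher in the mutant for 8 members (9.55% of all 6010 transcripts) and lower for 6 (14% of all), and the median was 0.03 against -0.04 over all. ESF1 had the lowest value (-0.69 ± 0.04, adjusted p = 6.11e-09), followed by NOP6 (-0.48 ± 0.07, adjusted p = 6.19e-05) and UTP23 (-0.48 ± 0.04, adjusted p = 1.65e-07), a small subunit factor with a PIN domain. UTP8 (0.35 ± 0.07, adjusted p = 0.000815) and NOP9 (0.30 ± 0.05, adjusted p = 0.000131) had the highest, followed by UTP22, which did not pass (0.25 ± 0.07, adjusted p = 0.0143). NOP58 was higher (0.25 ± 0.06, adjusted p = 0.0062), and NOP1, NOP56 and NOP10 had 0.04, 0.04 and 0.08 and did not pass. The count of 8 depends on single libraries. It was 3 without WT SPAAC replicate 2, between 14 and 16 without any 1 of the WT or xrn1-H41A RNA-seq libraries, and 16 with DESeq2. Whether the strain difference in NADcapPro exceeded that in SPAAC was not tested.

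Between the captures, NADcapPro recovered most members less than SPAAC did, relative to other transcripts. In WT, 2 members were at least 2-fold higher in NADcapPro (13.3% of all 6017 transcripts) and 6 at least 2-fold lower (11.3% of all), with a median log2 fold change of -0.28 against 0.02 over all. In xrn1-H41A, 2 were higher (18.7% of all 6039 transcripts) and 18 lower (17.8% of all), with a median of -0.82 against 0.05. The direction depends on the scaling. With library totals alone the median of all transcripts moved by 0.61 in WT and 0.81 in the mutant, and 7 members were higher and 0 lower in WT, against 1996 and 196 of all 6017 transcripts. In the mutant 5 members were higher and 1 lower, against 2637 and 318 of all 6039. In both scalings 33 members in WT and 39 in the mutant lay below the median of all transcripts.

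UTP20 and UTP10 were the 2 members higher in NADcapPro in both strains. UTP20 was at 40.7, 40.4 and 44.5 CPM in WT SPAAC and 116.8, 111.2 and 115.6 CPM in WT NADcapPro (log2 fold change 1.31 ± 0.04, adjusted p = 3.67e-16), and at 26.1, 24 and 26.1 CPM and then 107.4, 104.2 and 105 CPM in the mutant (1.84 ± 0.05, adjusted p = 1.08e-15). UTP10 had 1.14 ± 0.04 in WT and 1.34 ± 0.05 in the mutant (adjusted p = 5.91e-15 and 5.26e-14). With the length trend removed neither was 2-fold higher in either strain. UTP20 then had log2 fold changes of -0.15 in WT and -0.22 in the mutant, and UTP10 had 0.069 in WT (adjusted p = 0.113) and -0.13 in the mutant (adjusted p = 0.0167). UTP9 was higher by less, at 0.84 ± 0.03 in WT and 0.76 ± 0.03 in the mutant (adjusted p = 1.16e-15 and 2.74e-12).

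The lowest in WT were UTP23, NOP13 and UTP11. UTP23 was at 178.6, 177.3 and 178.1 CPM in WT SPAAC and at 65.7, 71.3 and 71.8 CPM in WT NADcapPro (-1.50 ± 0.04, adjusted p = 3.73e-18). NOP13 had -1.38 ± 0.03 and UTP11 -1.37 ± 0.03 (adjusted p = 1.25e-18 and 6.03e-18). In the mutant the lowest were NOP13 (-1.91 ± 0.03), UTP11 (-1.73 ± 0.04) and NSA2 (-1.58 ± 0.03), with adjusted p of 6.87e-18, 3.36e-16 and 1.94e-16. NOP1 had -0.72 ± 0.03 in WT and -1.54 ± 0.03 in the mutant (adjusted p = 1.98e-14 and 1.83e-17), and NOP56 had -0.49 ± 0.03 and -1.04 ± 0.04 (adjusted p = 2.4e-12 and 2.98e-13). NOP58 had -0.25 ± 0.03 in WT and -0.55 ± 0.04 in the mutant (adjusted p = 1.33e-07 and 3.83e-09). NOP10 was higher in NADcapPro in WT (0.75 ± 0.04, adjusted p = 4.04e-13) and lower in the mutant (-0.35 ± 0.04, adjusted p = 1.49e-06). All 15 large subunit members were below 0 in both strains, 3 of them at least 2-fold lower in WT and 10 in the mutant.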

How the data were processed

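RNA-seq, SPAAC and NADcapPro libraries of 3 biological replicates of WT and xrn1-H41A were used, 18 in all. The labels call NADcapPro DSPAAC. The other 2 libraries, made without ADPRC, were not analysed here: the labels list 1 per strain, but the names of those libraries in the deposited table do not say which strain is which. The authors trimmed reads with fastp 0.23.2, removed reads that hisat2 aligned to rRNA, and deposited estimated counts per transcript from kallisto 0.48.0 on RefSeq R64 transcripts, rounded to whole numbers. They also deposited lengths and effective lengths, from which TPM was recomputed. The k-mer length and any strand setting are not given in the sources used here. Of 6106 transcripts, 6098 were found in the R64 reference with the same length, and promoters were read from it.

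Counts were tested in R 4.3.3 with edgeR 4.0.16 (quasi-likelihood test, TMM, filterByExpr) on the libraries of the groups compared, with Benjamini-Hochberg adjustment over all transcripts tested. Captures were called past 2-fold in either direction with an adjusted p of at most 0.01, and strain comparisons at the adjusted p alone. The other count is given too, except for NADcapPro over SPAAC and for the strain difference in SPAAC. SE followed from the F statistic. DESeq2 1.42.0 was an alternative. Tables and figures used Python 3.11.15, pandas 2.3.3, NumPy 2.4.6, SciPy 1.17.1 and Matplotlib 3.10.9. Reads carry no molecular identifiers, so the floor of 3 counts covers counting error only.

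The members, gene lists and rules were chosen with earlier results of these data known. Named were the 3 highest and 3 lowest members of each comparison, the 4 snoRNP core genes, the longest and shortest member, XRN1 and the deleted marker genes, and the extremes of the pathway list in 2 comparisons. ENP2, UTP8 in WT SPAAC, ESF1 in mutant SPAAC, NOC2 and UTP22 in WT NADcapPro, UTP5, UTP10 and UTP23 among the strain differences, UTP14 in SPAAC and UTP25 were named after their values were seen. Of 102 pathway genes listed, 101 were found. MDN1 was not used here. The fit was tested on simulated counts with known changes.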

Additional observations from a re-analysis of the deposited data

How the results depend on the processing

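Counts of members were read again under 8 other settings and without each library. Counts or shares over all transcripts are given for the main fit and for library totals alone, not for the other settings. Deviations of same-numbered libraries correlated at only -0.15 to 0.153, so no effect shared by replicate number was seen. This does not show whether same-numbered libraries came from the same culture. The replicate block moved no count by over 1.5 times (13 in place of 12 members lower in mutant RNA-seq, and 7 and 31 in place of 6 and 30 for the strain difference in NADcapPro). Library totals alone moved the most. They gave 25 members higher and 3 lower in mutant RNA-seq, 0 enriched in SPAAC of either strain (with 9 higher and 30 lower in WT and 7 and 32 in the mutant at the adjusted p alone), and 4 depleted in mutant NADcapPro (12 higher and 28 lower at the adjusted p alone). For NADcapPro over SPAAC they gave 7 higher and 0 lower in WT and 5 and 1 in the mutant. Over all transcripts tested, library totals alone gave 2938 higher and 1258 lower in mutant RNA-seq. In SPAAC 71 were enriched in WT and 46 in the mutant, and 318 were depleted in mutant NADcapPro. At the adjusted p alone, 1402 were higher and 3299 lower in WT SPAAC and 1167 and 3560 in mutant SPAAC. In mutant NADcapPro 3287 were higher and 1767 lower. The log2 fold change of NOP10 turned to -0.33 in mutant SPAAC, 0.13 in mutant NADcapPro and 0.46 in mutant NADcapPro over SPAAC, and for NADcapPro over SPAAC NOP56 turned to 0.11 in WT and NOP58 to 0.36 in WT and 0.25 in the mutant. With 18 libraries in one fit, 0 members were enriched in mutant SPAAC and 3 were lower in WT NADcapPro over SPAAC, with NOP10 at -0.033 in mutant SPAAC and NOP58 at -0.001 in the strain difference in NADcapPro (-0.016 with no filter on low counts). With the length trend removed, 0 members were depleted in WT SPAAC, mutant SPAAC or WT NADcapPro, 1 was enriched in mutant SPAAC, 0 were higher in NADcapPro than in SPAAC in either strain, and 3 had a higher strain difference in NADcapPro. UTP20 then turned to 0.18 and 0.052 in WT and mutant SPAAC, -0.15 and -0.22 in NADcapPro over SPAAC and -0.13 in the strain difference. UTP22 turned to 0.15 and NOP10 to -0.061 in mutant SPAAC, UTP10 to -0.13 in mutant NADcapPro over SPAAC, and NOP56 and NOP58 to -0.051 and -0.036 in mutant RNA-seq. DESeq2's size factors gave 15 and its Wald test 16 members with a higher strain difference in SPAAC, against 8. The median of all transcripts moved by 0.07 in both. That count ran from 3 to 16 as each library was left out. NOP10 in mutant SPAAC ran from -0.002 without xrn1-H41A SPAAC replicate 1 to 0.102 without replicate 3, and NOP58 in the strain difference in NADcapPro from -0.01 without WT NADcapPro replicate 1 to 0.100 without WT RNA-seq replicate 3. The cause was not tested, beyond what each setting changes by construction. The lowest count of a member in any library was 355, and no member was near the floor of 3 counts.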
